A study of Homo sapiens with 4 samples.

Results

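The ETS transcription factors share a DNA-binding domain that reads a purine-rich core, and several of them direct how blood progenitors choose a lineage. Accessible chromatin at 8 of their genes was examined with and without treatment of the leukemia line HL-60, whose promyelocyte-like human cells mature toward neutrophils under all-trans retinoic acid (ATRA). The genes were SPI1, SPIB, FLI1, ERG, ETS1, ETS2, ETV6 and ELF1, taken by name. A peak belonged to a gene when it overlapped the gene body (GENCODE release 44 on GRCh37, the hg19 assembly) or 50 kb on either side. The peaks of the 4 lists were merged where they overlapped by at least 1 bp, which gave 108 regions at these genes of 78063 regions in the whole genome. The genes were 8 of 20162 protein-coding genes, of which 19458 had a peak in such a window.

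The ATRA group held 2 replicates of HL-60 cells kept in 1 µM ATRA for 4 days, and the control group held 2 replicates given ethanol, the solvent of ATRA, for the same 4 days. All were wild-type cells of this single line, and the study calls them independent biological replicates. ATAC-seq marks open DNA by the insertions of the Tn5 transposase, and each library was represented by its own list of called peaks with a score. The lists held 42081 to 63541 peaks. ATRA replicate 2 stood apart with the longest list, a median peak width of 416 bp against 291 to 328 bp in the other libraries, and 31.6 Mb covered against 16.3 to 17.5 Mb. No read counts come with the peaks, the depth behind each value is therefore unknown, and the absence of a called peak does not show closed DNA. Among defining promoters of myeloid cells, those of CD33 and LYZ had a peak in all 4 lists, MPO in 2, PRTN3 and CSF3R in 1 each, and ELANE and AZU1 in none. Of the lymphoid promoters, that of CD79A had a peak in 1 list and those of PAX5, CD3E, CD3D and CD2 had none, and all 5 erythroid and megakaryocytic promoters had none.

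As background, PU.1, the product of SPI1, is a master regulator of granulocytes and monocytes, and SPIB, its nearest relative, is known from B cells and plasmacytoid dendritic cells. FLI1 and ERG form a subfamily that maintains stem cells, megakaryocytes and endothelium. ETS1 is best known from lymphocytes, ETS2 acts downstream of Ras and MAP kinase signalling, ETV6 is a repressor needed for blood formation in the bone marrow, and ELF1 is an activator expressed across blood cells. Distal elements around such genes open and close as cells mature, whereas their promoters often stay accessible.

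SPI1 and FLI1 held distal regions that were called in 1 group only and, at SPI1, one called in all lists, and the DNA at the centre of 5 of them is shown here because the values below refer to it. The sequences are 200 bases about the centre of the merged region, on the plus strand of GRCh37, and capitals mark matches to a searched motif on either strand. They are the SPI1 region found only in the ATRA-treated cells (capitals: PU.1 motif), the SPI1 region found in all lists (capitals: CEBP motif), the SPI1 region found only in the control cells (capitals: CTCF motif, then CEBP motif), the FLI1 intron region found only in the ATRA-treated cells (capitals: CEBP motif, then GATA motif) and the FLI1 intron region found only in the control cells (capitals: RUNX motif).
SPI1 9.71 kb upstream, chr11:47409706-47409905: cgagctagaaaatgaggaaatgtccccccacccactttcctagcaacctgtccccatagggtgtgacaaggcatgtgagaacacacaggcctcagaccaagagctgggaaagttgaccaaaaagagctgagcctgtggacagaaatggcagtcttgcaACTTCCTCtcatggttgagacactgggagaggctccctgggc
SPI1 16.4 kb upstream, chr11:47416374-47416573: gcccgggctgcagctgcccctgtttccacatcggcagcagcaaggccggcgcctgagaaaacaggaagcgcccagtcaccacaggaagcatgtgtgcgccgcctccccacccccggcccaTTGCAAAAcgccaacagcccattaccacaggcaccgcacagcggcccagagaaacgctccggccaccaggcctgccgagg
SPI1 29.5 kb downstream of the gene start, chr11:47370539-47370738: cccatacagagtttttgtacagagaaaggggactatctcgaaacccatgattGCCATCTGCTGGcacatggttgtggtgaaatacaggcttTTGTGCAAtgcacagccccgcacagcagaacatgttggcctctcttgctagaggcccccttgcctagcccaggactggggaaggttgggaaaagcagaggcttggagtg
FLI1 51.4 kb downstream of the gene start, chr11:128607723-128607922: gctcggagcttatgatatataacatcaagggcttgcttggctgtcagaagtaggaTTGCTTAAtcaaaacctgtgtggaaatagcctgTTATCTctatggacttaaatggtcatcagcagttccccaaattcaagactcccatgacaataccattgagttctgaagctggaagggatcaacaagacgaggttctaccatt
FLI1 39.1 kb downstream of the gene start, chr11:128595468-128595667: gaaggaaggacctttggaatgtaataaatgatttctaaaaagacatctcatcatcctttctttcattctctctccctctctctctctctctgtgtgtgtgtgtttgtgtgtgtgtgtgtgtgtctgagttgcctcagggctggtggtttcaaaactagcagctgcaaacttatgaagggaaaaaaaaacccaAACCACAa

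A region was called ATRA-specific when both ATRA replicates had overlapping peaks there and the control replicates did not both have one, and control-specific in the reverse case. At the 8 genes 28 regions (25.9%) were ATRA-specific, beside 18.0% of all regions, and 13 (12%) were control-specific, beside 9.52%. Another 35 (32.4%) were shared by both groups, beside 30.2%. The remaining 32 regions had a peak in 1 library only (27 regions, 12 of them in ATRA replicate 2) or in 1 library of each group (5 regions). ATRA-specific regions were present at all 8 genes, and 66.8% of the genes with a peak had at least 1. Control-specific regions were present at 5 of the 8 (SPI1, FLI1, ERG, ETS1 and ETV6), and 40.4% of genes had at least 1. In bulk cells, fewer cells with an open site and less opening per cell cannot be told apart.

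The specific label often rested on a single control or ATRA library. Of the 28 ATRA-specific regions 14 had no peak in either control library (13%, beside 8.94% of all regions), and the other 14 had a peak in 1 of them. Of the 13 control-specific regions 6 had no peak in either ATRA library (5.56%, beside 3.37%), and 6 of the other 7 had a peak in ATRA replicate 2, the longest list. When each list was reduced to its 42081 highest peaks, 18 ATRA-specific and 13 control-specific regions were found among 98 regions, which was 18.4% and 13.3% beside 15.8% and 12.6% of all regions. Among the peaks above the median score of each list, the ATRA-specific share was below that of all regions (17.2% beside 18.7%), while the control-specific share was 14.1% beside 10.2%. No test of these shares was made. Single libraries also moved the counts. There were 45 ATRA-specific regions without ATRA replicate 1 and 18 without control replicate 2, and 7 control-specific regions without ATRA replicate 1 and 23 without control replicate 1.

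**Figure D1:**
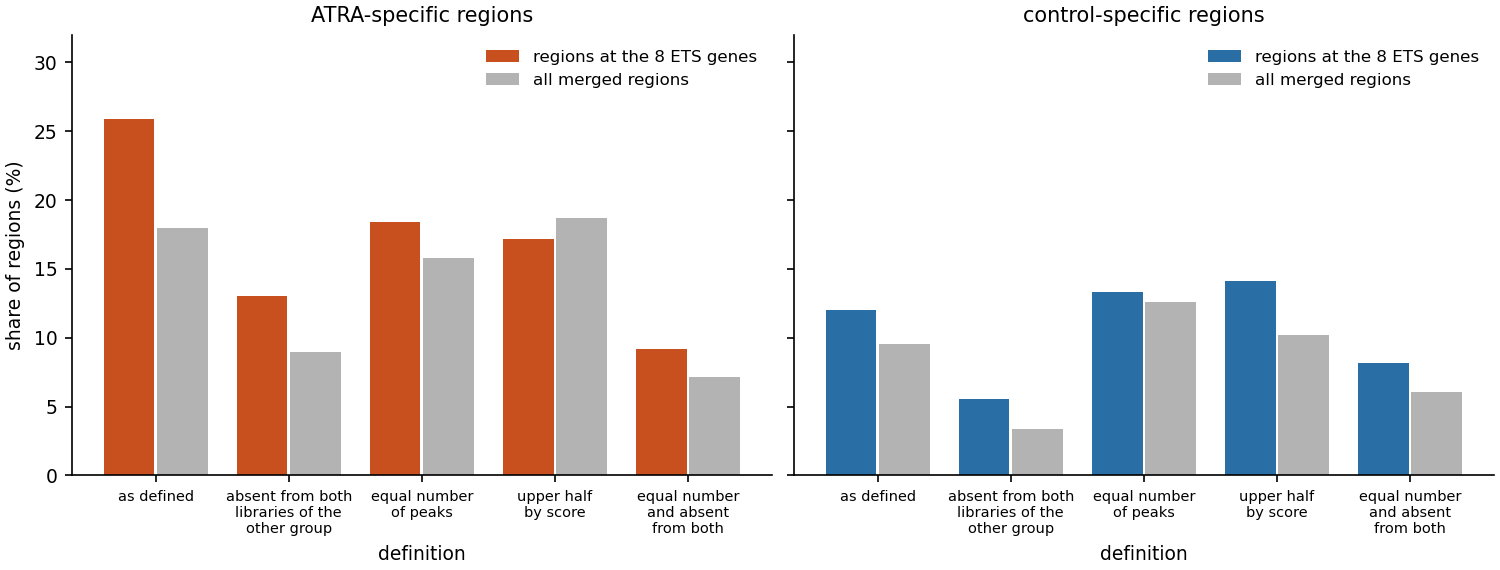
Share of regions (%, vertical axis) called ATRA-specific (left) or control-specific (right) at the 8 ETS genes (coloured bars) and among all merged regions (grey bars) under 5 definitions. The ATRA-specific share was 25.9% against 18.0% as defined and 17.2% against 18.7% among the peaks above the median score. It lay below the grey bar under that last definition alone. The control-specific share lay above the grey bar under all 5 definitions, narrowly with an equal number of peaks (13.3% against 12.6%). No share was tested.

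The number of peaks at the 8 genes was 70 in ATRA replicate 1, 86 in ATRA replicate 2, 69 in control replicate 1 and 65 in control replicate 2. ATRA replicate 1 was thus close to the control libraries, and ATRA replicate 2 stood above the other 3. The mean was 78 ± 11.3 (SD, n = 2) in the ATRA group and 67 ± 2.83 (SD, n = 2) in the control group (two-sided exact permutation p = 0.333, the smallest that 2 against 2 libraries allow). Per 10000 peaks of the list the values were 16.1 and 13.5 in the ATRA replicates and 16.4 and 14.2 in the control replicates, so the direction turned. The difference of 11 peaks became 3 when ATRA replicate 2 was left out and 19 when ATRA replicate 1 was. With 42081 peaks in every list the mean was 65 ± 5.66 in the ATRA group and 64.5 ± 6.36 in the control group (n = 2 each, exact permutation p = 1).

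Counted gene by gene, both ATRA libraries had more peaks than both control libraries at 4 of the 8 genes (SPIB, ETS2, ETV6 and ELF1), and 22.9% of all genes with a peak did the same. ERG alone had more peaks in both control libraries, as did 3.03% of all genes. The counts overlapped between the groups at SPI1, FLI1 and ETS1. ERG was also the only one of the 8 without a region in all 4 lists, which held for 14.3% of genes. Long genes have long windows (112 kb for SPIB to 382 kb for ERG), and the shares over all genes were not matched for length.

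**Figure D2:**
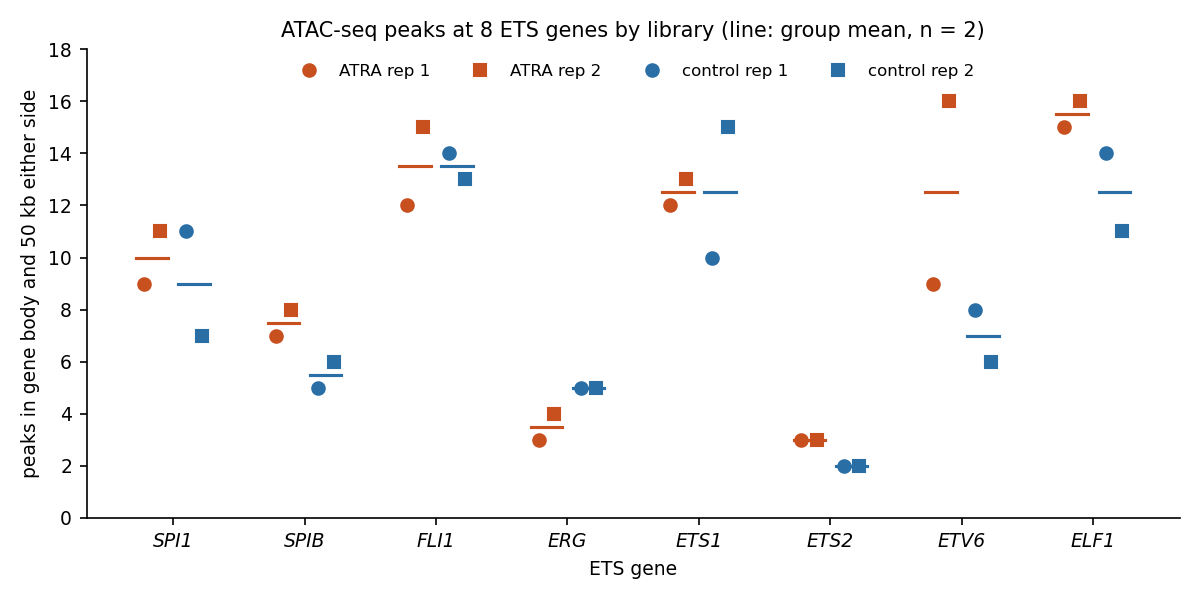
Number of peaks in the gene body and 50 kb either side (vertical axis) for each of the 8 ETS genes, with circles for replicate 1, squares for replicate 2, orange for ATRA, blue for control and a line at each group mean (n = 2). The ETV6 count of ATRA replicate 2 (16) stands far above the other 3 libraries (6 to 9), and at SPI1, FLI1 and ETS1 the groups overlap.

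Values below are score percentiles, the rank of a peak's score within its own list from 0 (weakest) to 100 (strongest), and a longer list, such as that of ATRA replicate 2, holds more weak peaks below a given one. Distances run from the annotated gene start to the centre of the region in the direction of transcription. SPI1 (ENSG00000066336, chr11:47376411-47400098, minus strand) had 9 and 11 peaks in the ATRA replicates and 11 and 7 in the control replicates. Its 13 regions comprised 4 ATRA-specific, 2 control-specific and 4 shared ones. The clearest ATRA-specific region lay 9.71 kb upstream, between genes (chr11:47409334-47410278). It ranked at the percentile 77.1 in ATRA replicate 1 and 91.5 in ATRA replicate 2, with widths of 604 and 945 bp, and had no peak in either control library. It was the highest-ranked of all 14 regions of the 8 genes that had a peak in both ATRA libraries and in no control library. Its central sequence holds a PU.1 motif, a sequence that the gene's own product can read. This motif was in 11.1% of all ATRA-specific regions, and binding of PU.1 was not tested.

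A neighbouring region 16.4 kb upstream (chr11:47415569-47417378, intergenic) was open in every library. It ranked at 68.6 and 74.5 in the ATRA replicates and at 26.4 and 61.4 in the control replicates, and its peaks were 1117 and 1810 bp wide after ATRA and 853 and 400 bp wide in the control. Both rank and width were higher in each ATRA library than in each control library. Of all regions open in every library, 21.9% ranked higher in this way and 17.8% were wider. In the rank test described below, the difference at this region was 20.7 ± 15.8 (SE, limma adjusted p = 0.62). It was 7.23 without control replicate 1. An upstream regulatory element of SPI1 is well known in myeloid cells, and no file used here places it, so both regions are given by distance alone. A further region 14.7 kb upstream, outside the rule for named regions and pointed out for its place between these, had a peak in ATRA replicate 1 only, at 36.8.

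The promoter of SPI1 (chr11:47399175-47400568) was open in all 4 libraries, at 60 and 84.4 after ATRA and at 90.3 and 83.7 in the control. The groups overlapped, and the peak was narrowest in ATRA replicate 1 (572 bp against 775 to 1394 bp). An intron region 1.59 kb inside the gene (chr11:47398055-47398959) was ATRA-specific, at 54.8 and 17.3 in the ATRA replicates, 0.323 in control replicate 1 and no peak in control replicate 2. The region 22.1 kb upstream (chr11:47421609-47422868) was ATRA-specific by the rule although control replicate 1 ranked highest there, at 59.8 against 7.24 and 46.6 in the ATRA replicates, because control replicate 2 had no peak.

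Control-specific chromatin at SPI1 lay at the far end of the gene and beyond it. A region over an exon 18.7 kb from the gene start (chr11:47381033-47381757) ranked at 67.8 and 74.7 in the control replicates, at 2.51 in ATRA replicate 2, and had no peak in ATRA replicate 1. A weaker region 29.5 kb from the gene start (chr11:47370523-47370754), in an intron of MYBPC3, the gene of cardiac myosin-binding protein C, ranked at 26.6 and 36.5 in the control replicates and had no peak in either ATRA library. SPI1 thus held regions of both kinds, with the ATRA-only region upstream and the control-specific ones downstream. The promoters of its neighbours SLC39A13, a zinc transporter, and PSMC3, a proteasome subunit, were open in all 4 libraries at 92.8 to 96.3 and 94.2 to 97.9.

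**Figure D3:**
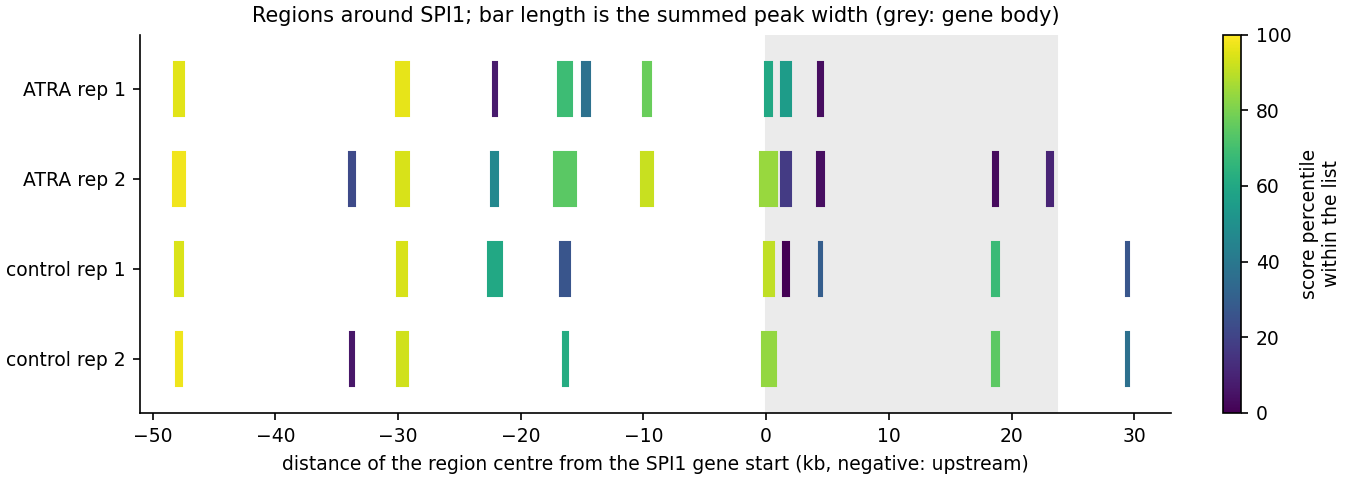
Regions around SPI1 in the 4 libraries: the horizontal axis is the distance of the region centre from the gene start in kb (negative values upstream), bar length is the summed peak width, colour is the score percentile within the list and the grey field is the gene body. The bar at -9.71 kb appears in the ATRA rows alone, and the bars at 29.5 kb in the control rows alone.

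SPIB (ENSG00000269404, chr19:50922195-50934571, plus strand) had 7 and 8 peaks after ATRA and 5 and 6 in the control. None lay at its own promoter. Of its 9 regions 3 were ATRA-specific, 3 were shared and none was control-specific. The only one without a control peak lay 50.1 kb upstream, in an intron of NR1H2 (chr19:50871848-50872376), at 11.5 and 66. The others were at 42.6 and 64.9 over an exon of EMC10 60.3 kb from the gene start, and at 38.8 and 37.5 at a neighbouring promoter 4.01 kb upstream. In control replicate 2 they ranked at 25.8 and 27.1. All 3 shared regions were promoters of other genes (NR1H2, POLD1 and MYBPC2). That of NR1H2, which encodes a liver X receptor, ranked at 75 and 90.1 after ATRA and at 46.7 and 26.1 in the control, so the groups did not overlap.

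FLI1 (ENSG00000151702, chr11:128556430-128683162, plus strand) had 12 and 15 peaks after ATRA and 14 and 13 in the control, with 4 ATRA-specific, 4 control-specific and 7 shared regions among 19. Sites of both kinds lay in its introns. The region 39.1 kb from the gene start (chr11:128595227-128595908) ranked at 59.1 and 39.7 in the control replicates, and the region at 47.4 kb (chr11:128603650-128604081) at 58.3 and 34, neither with a peak after ATRA. The next region, at 51.4 kb (chr11:128607563-128608082), ranked at 60.6 and 33.4 in the ATRA replicates and had no control peak. Sites called in a single group, and of opposite kinds, thus lay close together in the same gene.

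A stronger FLI1 intron region at 32.4 kb (chr11:128588519-128589220) was ATRA-specific at 69.6 and 79.3, but control replicate 1 had a peak there at 29.8. At the promoter of KCNJ1, a potassium channel gene 157 kb from the FLI1 start, a weak region (chr11:128713369-128713718) ranked at 4.66 and 15.8 after ATRA with no control peak. A region in an intron of KCNJ1, 174 kb from the start, was control-specific at 41.9 and 33.2, although ATRA replicate 2 had a peak at 38.8. The FLI1 promoter region (chr11:128563464-128564297), whose central sequence holds a PU.1 motif, was open in all libraries, at 34.1 and 43.3 after ATRA and at 52 and 9.47 in the control. The control replicates spanned both ATRA values.

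ERG (ENSG00000157554, chr21:39751949-40033704, minus strand) had 3 and 4 peaks after ATRA and 5 in each control library. Its 10 regions were few for the longest of the 8 genes, none was in all 4 lists and none was at a promoter of ERG. A pair of intron regions found only in the control, 156 kb (chr21:39877664-39877913) and 185 kb (chr21:39848350-39848643) from the start, were weak, at 33 and 12.1 and at 4.34 and 7.99. An intron region at 194 kb (chr21:39839313-39839643) ranked at 37.2 and 36.9 in the control and at 54.7 in ATRA replicate 2. The region found only after ATRA, at 155 kb (chr21:39878539-39878955), ranked at 17 and 57.7 and lay beside the control-only one at 156 kb. A region past the gene end, 306 kb from the start, was ATRA-specific at 20 and 58.4 with a peak in control replicate 1 at 49.4.

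ETS1 (ENSG00000134954, chr11:128328656-128457453, minus strand) had 12 and 13 peaks after ATRA and 10 and 15 in the control, and its 18 regions included 3 of each specific kind. Its highest-ranked specific regions were control-specific. An intron region 38.8 kb from the start (chr11:128418257-128419036) ranked at 71.1 and 62.1 in the control replicates with no ATRA peak, the highest of the 6 control-only regions at the 8 genes, and 69% of its central bases were G or C. An intergenic region 36.9 kb upstream (chr11:128494026-128494622) ranked at 81.8 and 84.5 in the control and at 21.1 in ATRA replicate 2 alone. An intron region at 111 kb (chr11:128346435-128347121) ranked at 93.7 and 80.2 in the control and at 64.1 in ATRA replicate 1 alone. The latter pair were the only control-specific regions of the 8 genes above the percentile 80 in both control libraries.

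The ATRA-only regions of ETS1 were uneven between replicates. In the intron at 11.7 kb (chr11:128445462-128446115) ATRA replicate 1 ranked at 14.3 with a 200 bp peak and ATRA replicate 2 at 74 with a 654 bp peak. At 35.4 kb (chr11:128421681-128422378) the values were 8.09 and 37.6. The remaining ATRA-specific region, 119 kb from the start, ranked at 34.8 and 59.3, with 2.5 in control replicate 2. The ETS1 promoter (chr11:128391996-128392841) was open in all libraries, at 89.4 and 72.1 after ATRA and at 91 and 71.4 in the control, so the replicates of each group differed more than the groups did.

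ETS2 (ENSG00000157557, chr21:40177107-40196879, plus strand) had only 3 regions, with 3 peaks in each ATRA library and 2 in each control library. The additional one lay 49.3 kb upstream (chr21:40127586-40128050, intergenic), at 48.2 and 57.6 after ATRA with no control peak, and its centre holds a CEBP and an AP-1 motif. The promoter (chr21:40177301-40178046) ranked at 92.5 and 83.1 after ATRA and at 77.4 and 31.2 in the control, so the groups did not overlap on this scale. The control replicates were themselves far apart there. A region past the gene end, 26.5 kb from the start, was similar among libraries (79.9 to 89.8).

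ETV6 (ENSG00000139083, chr12:11802608-12048311, plus strand) had 9 and 16 peaks after ATRA and 8 and 6 in the control. Of its 17 regions 5 were ATRA-specific and 1 was control-specific, and 5 were present in ATRA replicate 2 alone, the library with the longest list. It held 4 of the 14 regions found only after ATRA, the most of the 8 genes. They were intronic or exonic. The strongest, 117 kb from the start (chr12:11918926-11919877), ranked at 57 and 80.3 with widths of 538 and 952 bp, and that at 70.2 kb (chr12:11872557-11872984) ranked at 42.8 and 59.3. The region at 190 kb (chr12:11992204-11992681), with a PU.1 motif, ranked at 33.7 and 19.9. The control-specific region at 3.42 kb (chr12:11805288-11806762) ranked at 21.4 and 17 in the control but higher, at 44.7, in ATRA replicate 2. The promoter region (chr12:11801911-11802493) was a modest one in all libraries, at 42.9 and 10.5 after ATRA and 46.3 and 28.2 in the control.

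ELF1 (ENSG00000120690, chr13:41506060-41635576, minus strand) had 15 and 16 peaks after ATRA and 14 and 11 in the control. It had 6 ATRA-specific regions, the most of the 8 genes, and none that was control-specific. The highest of them, in an intron 94.9 kb from the start (chr13:41540322-41540937), ranked at 79.7 and 59, with a control replicate 1 peak at 2.88. The 2 without a control peak were weak, at 22.9 and 30.2 in an intron at 11.2 kb (chr13:41624211-41624617) and at 8.78 and 26.8 in an intron of WBP4 13.8 kb upstream (chr13:41649136-41649614). ELF1 had 3 promoter regions, all open in every library. The outermost one, shared with WBP4 (chr13:41634039-41636574), was the widest region of the 8 genes and ranked at 99 and 98.8 after ATRA and at 99.3 and 92.5 in the control. The inner ones ranked at 86.7, 80.9, 87.6 and 84 (42.2 kb from the start) and at 53, 38.7, 62.3 and 56.8 (78.5 kb), in the order of ATRA replicates 1 and 2 and control replicates 1 and 2.

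**Figure D4:**
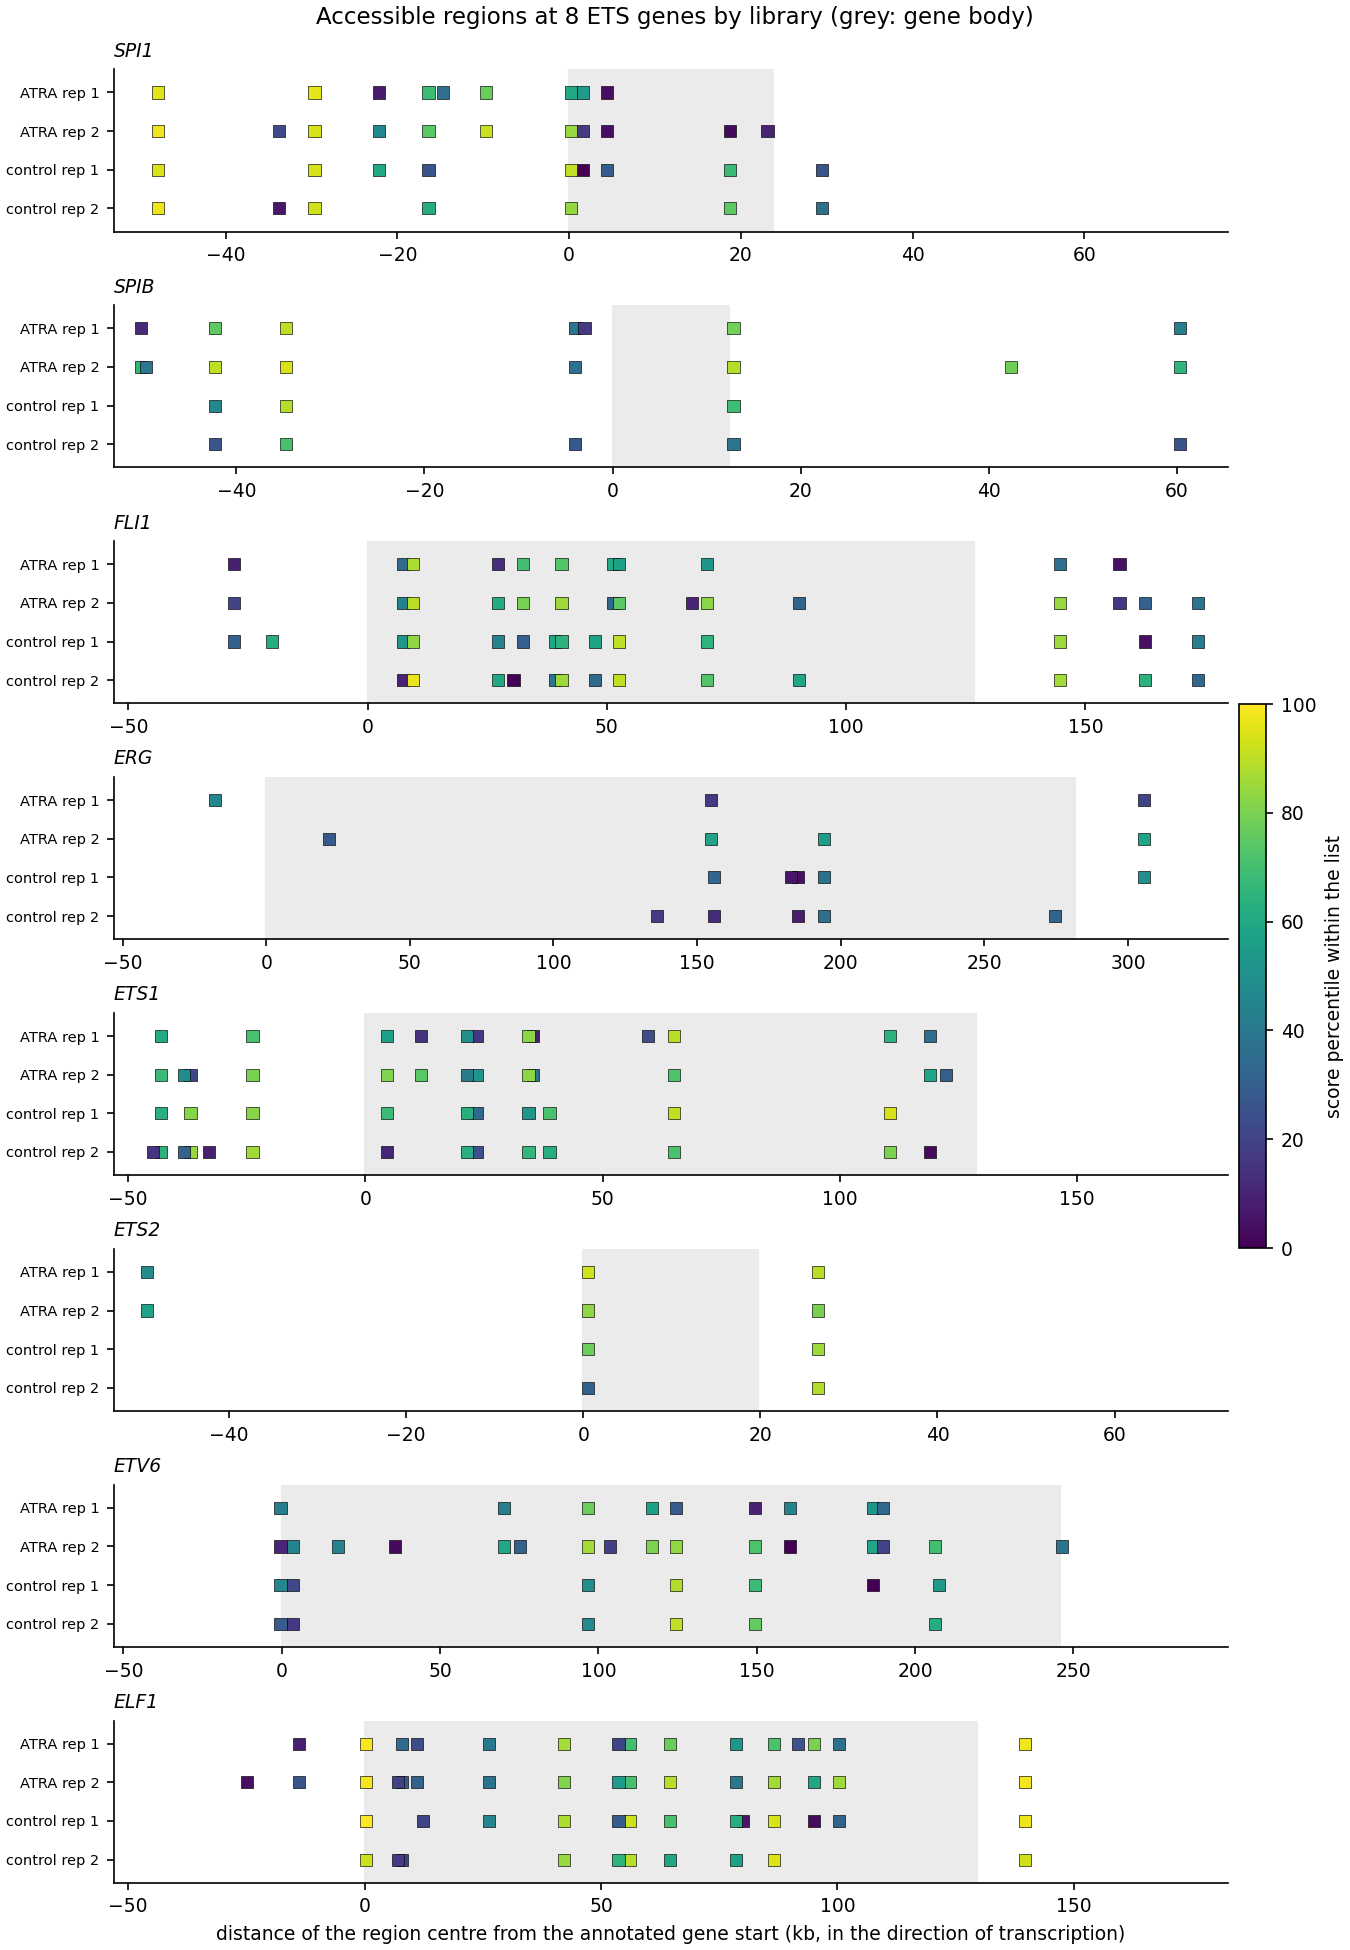
All 108 regions at the 8 ETS genes: each panel is a gene, each row a library, the horizontal axis the distance of the region centre from the gene start in kb, colour the score percentile within the list and grey the gene body (marker size is not to scale). ERG holds few and weak regions over 282 kb of gene body, and the ELF1 start is at 92.5 to 99.3 in every row.

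All 8 regions at promoters of the genes themselves were open in every library. Several of these were at ELF1, and SPIB and ERG had none. Only 2 of the specific regions lay at any promoter, those beside SPIB and at KCNJ1. The shares of all promoter regions and of all specific regions that do the same are not given here, so these counts describe the members alone. Most regions were in introns (67 of 108), 20 were intergenic and 5 exonic. The ATRA-specific regions had a median percentile of 35.7 in ATRA replicate 1 and 52.1 in ATRA replicate 2, close to those of all ATRA-specific regions (36.6 and 49.6). The control-specific regions had medians of 41.9 and 36.9 in the control replicates, beside 38.1 and 43.8. Shared regions ranked higher, with medians of 70.7 to 82.7 in the 4 libraries beside 68.3 to 79.3 for all shared regions.

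The regions open in all 4 libraries allowed a test of rank and width. Ranks were recomputed among the 23653 such regions of the genome, from 0 to 100, and compared with limma's moderated test on all of them, with Benjamini-Hochberg adjustment. None of the 35 regions at the 8 genes passed an adjusted p of 0.05, and neither did any region of the genome in either direction (0% higher, 0% lower). At an unadjusted p under 0.05 there were 6 of 35, beside 1489 higher and 1507 lower in the genome. Both ATRA libraries ranked above both control libraries at 8 of 35 regions (22.9%, beside 21.9% of all such regions). They ranked below both at 12 (34.3%, beside 21.8%). The median difference, ATRA minus control, was -6.31 rank points, and it was -0.41 with percentiles of the whole list, where the genome's median was 2.83. The rank-point median was -0.845 without ATRA replicate 2.

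The largest higher rank was at the NR1H2 promoter beside SPIB, with a difference of 48.1 ± 16.7 (SE, limma adjusted p = 0.305). All 3 shared regions of SPIB, each at a promoter of another gene, had higher mean ranks after ATRA. All 7 of FLI1 had lower ones, though at 40.5 kb the difference was near 0. Of these 7, 4 (those at 7.45, 9.41, 40.5 and 70.9 kb) turned positive when 1 library was left out. The share of all genes whose shared regions go in the same direction is not given here. The FLI1 intron region at 52.6 kb (chr11:128608594-128609383), beside the ATRA-only site at 51.4 kb, differed by -43.6 ± 14.5 (limma adjusted p = 0.294), with shared ranks of 35.1 and 41.8 after ATRA and 83 and 81.1 in the control. At ETV6 the region at 96.7 kb was higher by 37.1 ± 16.2 (limma adjusted p = 0.391) and the region at 125 kb lower, at -45.2 ± 18.6 (limma adjusted p = 0.371). The latter ranked at 12.9 and 58.5 after ATRA and at 79.8 and 81.9 in the control, and leaving out ATRA replicate 1 gave a difference of -22.4, whereas omitting ATRA replicate 2 gave -68. The ETV6 differences were of both signs, and none passed the test.

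At ELF1 the intron region at 56.2 kb differed by -40.2 ± 13.9 (limma adjusted p = 0.305) and that at 64.5 kb by 21.9 ± 16.6. The ELF1 region at 86.5 kb, outside the rule for named regions and pointed out for the lowest adjusted p of the 35, differed by -30.3 ± 8.19 (limma adjusted p = 0.244). At ETS1 the regions at 34.4 kb and 21.4 kb differed by 25.6 ± 16.8 and -22.5 ± 14. Of the promoters, SPI1 had shared ranks of 39.5 and 60.7 after ATRA and 83 and 70.2 in the control, a difference of -26.5 ± 14.4 (limma adjusted p = 0.481) on a scale where its groups did not overlap. The ETS2 promoter differed by 34.4 ± 21.1 (limma adjusted p = 0.529), and its groups overlapped on this scale (86.3 and 57.9 against 62.8 and 12.6). The promoters of FLI1, ETS1 and ETV6 and the outermost one of ELF1 differed by -4.27 ± 11.6, -8.41 ± 18.5, -6.31 ± 11.3 and 5.32 ± 3.56. The inner ELF1 promoters differed by -9.84 ± 11.6 at 42.2 kb and by -18.3 ± 14.2 at 78.5 kb, and at the latter both ATRA libraries (32.1 and 7.4) ranked below both control libraries (42.8 and 33.3).

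**Figure D5:**
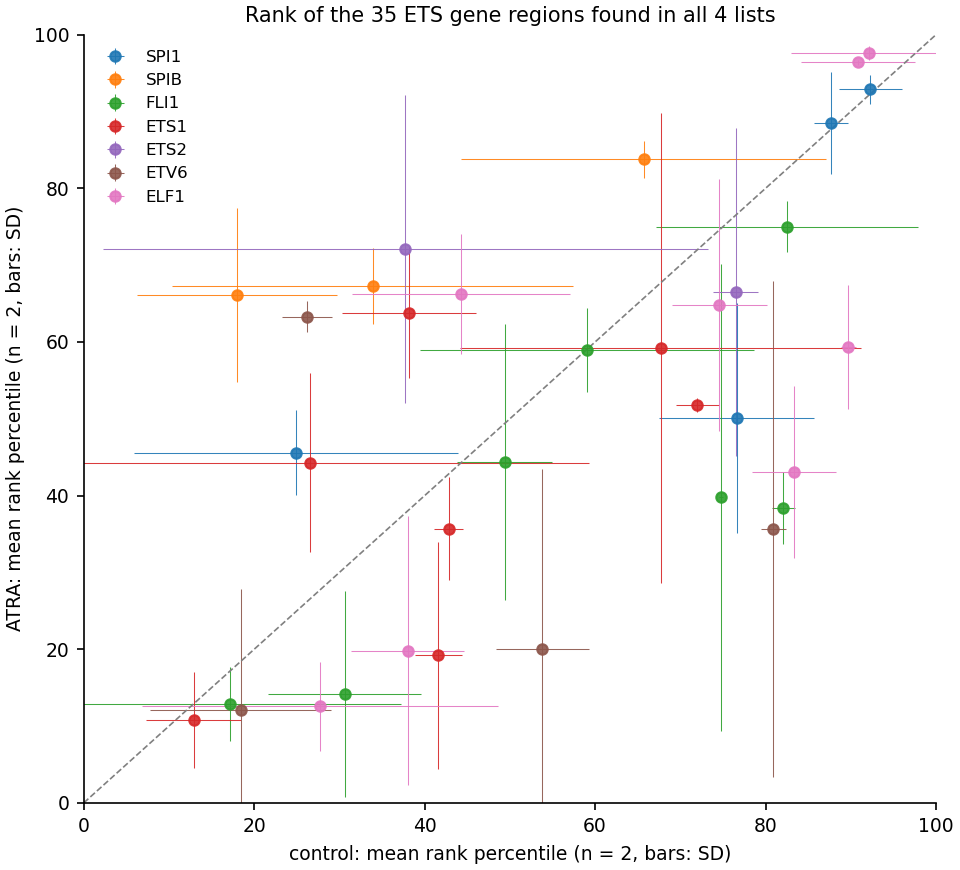
Mean rank percentile among the regions open in all 4 libraries, control on the horizontal and ATRA on the vertical axis, for the 35 regions at 7 ETS genes (ERG has none); bars are the SD (n = 2) and the dashed line marks equal rank. SPIB points, which are promoters of other genes, lie above the line and FLI1 points on or below it. The SPI1 promoter lies below it at 50.1 against 76.6.

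Peak width, on the log2 scale and centred on the median width of each list, was fitted in the same way. Of the genome's shared regions 0.131% were wider and 0.118% narrower after ATRA at an adjusted p under 0.05 in limma, and none of the 35 was among them. At an unadjusted p under 0.05 the limma fit had 1 wider and 5 narrower regions among the 35, beside 1187 wider and 1189 narrower of the 23653, and with widths not centred on each list it had 1 wider and 0 narrower of the 35. Both ATRA libraries were wider at 5 regions (14.3%, beside 17.8% of all shared regions) and narrower at 9 (25.7%, beside 21.4%). The wider one was the SPI1 region 16.4 kb upstream, with a difference of 0.95 ± 0.33 (limma adjusted p = 0.281). At the NR1H2 promoter the difference was 0.55 ± 0.43 (limma adjusted p = 0.751). Without control replicate 1 these differences were 1.45 and 1.43. The control then held a single library, which is assumed to vary like the ATRA libraries. Without control replicate 2 these differences were 0.455 and -0.326. The FLI1 region at 52.6 kb was narrower as well as lower in rank, at -0.67 ± 0.30 (limma adjusted p = 0.452).

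Motifs were searched in 200 bases about the centre of each region on both strands. The PU.1 motif GAGGAAGT was found in 9 of 108 regions (8.33%, beside 8.94% of all regions). Of the 28 ATRA-specific regions 3 held it (10.7%, beside 11.1% of all ATRA-specific regions). These were the SPI1 region 9.71 kb upstream, the ETV6 region at 190 kb and an ELF1 region at 26.4 kb. The ELF1 region is outside the rule for named regions. The RUNX motif AACCACA was in 7 (6.48%, beside 8.55%), and the AP-1 motif, TGACTCA or TGAGTCA, in 5 (4.63%, beside 5.72%). The ETS motif CCGGAAGT, which overlaps the PU.1 motif in its GGAAGT end, was in none (beside 1.11%), nor was the retinoic acid receptor repeat DR5 (beside 0.0974%). The CEBP motif TTGCNNAA was in 17 (15.7%, beside 12.3%), and among shared regions in 9 of 35 (25.7%, beside 10.3%). The GATA motif, AGATAA or TGATAA, was in 23 (21.3%, beside 18.8%). Among control-specific regions it was in 2 of 13 (15.4%), beside 30.7% of all control-specific regions, and among shared regions in 10 of 35 (28.6%, beside 14.5%). The CTCF motif was in 2 regions (1.85%, beside 5.87% of all regions), both at SPI1. These matches describe the letters in a short window only.

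The other 20 human ETS genes also held regions of both kinds. An ATRA-specific region was present at 16 of them and a control-specific one at 9, and 16 had a region in all 4 lists. Among all genes with a peak, 66.8% had an ATRA-specific region, 40.4% a control-specific one and 14.3% no region in all 4 lists. Regions absent from the other group were found after ATRA at 11 genes and in the control at 3 (ETV3L, ETV5 and ELF2). Such regions were also more frequent after ATRA in the whole genome, at 8.94% of all regions against 3.37% in the control. The shares of all genes that hold them are not given here. Both ATRA libraries had more peaks at 6 genes (ETV1, ETV3, ETV3L, ETV7, ELF5 and ELK3), and both control libraries at none. Over all genes with a peak these shares were 22.9% and 3.03%. The promoters of ETV3, a repressor, and ELK3, a partner of serum response factor, were ATRA-specific, unlike any promoter of the 8 genes. ETV3L had the most ATRA-specific regions, 6, with peak counts of 7 and 8 after ATRA and 5 and 1 in the control. ETV3 and ETV3L are neighbours and may count some of the same regions.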

How the data were processed

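ATAC-seq was performed on 4 HL-60 libraries, grouped by their titles. Per the labels and methods, the authors trimmed adapters with cutadapt, aligned reads to hg19 and called peaks for each library separately. The methods name MACS2 as the peak caller, and the labels name both MACS and MACS2. The deposited lists hold 5 columns, the last a peak score from 50 to a ceiling of 3100 whose scale is not stated, so the score was used for ranks only. No Tn5 shift, duplicate removal or blacklist is given in the sources used here, which could move peak edges or keep peaks in repeats.

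Peaks were merged and assigned with Python 3.11.15, numpy 2.4.6 and pandas 2.3.3, and sequences were read with pysam 0.24.0. A promoter ran from 1 kb upstream to 100 bp downstream of a start of a protein-coding transcript in GENCODE 44. Ranks and widths were fitted with limma 3.58.1 (lmFit, eBayes with trend) in R 4.3.3, tested on simulated data. Single values had exact permutation tests.

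Named regions were all promoter regions, up to 3 specific regions per gene and direction by mean percentile (those absent from the other group first), and the shared region of largest rank rise and fall. Members and lists were chosen with earlier results of these data known. Alternatives changed the overlap, window, list length, score filter, rank scale, variance model, replicate block and replicates. A marker promoter of the lymphoid list is not reported here.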

Additional observations from a re-analysis of the deposited data

How the results depend on the processing

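The counts of specific regions depended on the definition. The 28 ATRA-specific regions became 14 when neither control library could have a peak, 18 with an equal number of peaks per list, 11 above the median score of each list and 18 in the gene body alone. The 13 control-specific regions became 6 when neither ATRA library could have a peak. With both restrictions together, a setting chosen after seeing the data, there were 9 ATRA-specific and 8 control-specific regions. Leaving out 1 library gave 18 (without control replicate 2) to 45 (without ATRA replicate 1) ATRA-specific and 7 (without ATRA replicate 1) to 23 (without control replicate 1) control-specific regions.

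The difference in peaks per library, 11, turned to -0.464 per 10000 peaks of the list and was 3 when ATRA replicate 2 was left out and 19 when ATRA replicate 1 was. Leaving out 1 library left a single library in its group, which is assumed to vary like the libraries of the other group. The median rank difference of the 35 regions was then -7.7 without ATRA replicate 1 and -0.845 without ATRA replicate 2. It was -5.92 without control replicate 1 and -6.05 without control replicate 2. Median log2 width differences were -0.0985, -0.0143, -0.177 and -0.115 in the same order. With the replicate number as a block, 1 region passed for rank (ELF1 at 86.5 kb, limma adjusted p = 0.0263) and 2 for width (ETS1 at 23.8 kb upstream and ETV6 at 149 kb, limma adjusted p = 0.0175 and 0.0208). Replicates of the same number had correlated deviations of 0.24 for rank and 0.09 for width. The labels give no shared batch, so whether libraries of the same number were paired is unknown. Over the whole genome 0 regions passed for rank in the limma fit as reported, 79 higher and 152 lower with normal scores of the rank, and 511 higher and 552 lower with the block. For width these were 31 and 28 as reported, 276 and 304 with the block, and 29 and 1 with widths not centred on each list. The last setting moved the median difference of all shared regions from -0.0211 to 0.307 and that of the 35 regions from -0.146 to 0.182. The other counts of specific regions stayed within 1.5 times of those reported. At the 8 genes, the other fits of all 4 libraries left 0 passing regions. The other differences in peaks per library kept their sign but ranged down to 0.5 with an equal number of peaks per list. No exact test of these could pass. The lists hold no read counts, so what depth limits could not be measured.

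Of 585 recomputed differences at single shared regions 54 changed sign, and 0 of these had an adjusted p under 0.05 in limma. With normal scores of the rank, FLI1 at 7.45 kb turned to 0.036. With percentiles of the whole list, ranks turned to 5.06 (ETS1 at 23.5 kb), 0.507 (ETS1 at -43.1 kb), 7.93 (FLI1 at 7.45 kb) and 4.27 (FLI1 at 40.5 kb). Among regions above the median of the mean percentile, the width difference of ELF1 at 78.5 kb turned to 0.00598. With widths not centred, it was 0.324 there, 0.295 at SPI1 (-29.7 kb), 0.196 at FLI1 (145 kb) and 0.286, 0.0499, 0.164 and 0.182 at ELF1 (140, 56.2, 42.2 and 0.269 kb). Leaving out 1 library turned the sign of 13 rank differences, with ranges of -21.4 to 1.72 and -1.17 to 11.8 at ELF1 (42.2 and 0.269 kb), -5.5 to 40.7, -30 to 13.2 and -6.52 to 2.34 at ETS1 (4.48, 65 and 23.5 kb), -25 to 5.15 at ETS2 (26.5 kb), -17.5 to 4.89 at ETV6 (-0.406 kb), -17.8 to 7.7, -18.4 to 9.89, -18.4 to 3.45 and -13.9 to 13.9 at FLI1 (70.9, 7.45, 9.41 and 40.5 kb) and -3.97 to 5.48 and -1.99 to 3.21 at SPI1 (-29.7 and -47.9 kb). It turned 17 width differences, with ranges of -0.151 to 0.066, -1.38 to 0.154, -0.383 to 0.054, -0.322 to 0.0296, -0.738 to 1.05, -0.0555 to 0.0472 and -0.561 to 0.00347 at ELF1 (140, 53.7, 42.2, 0.269, 86.5, 78.5 and 56.2 kb), -0.12 to 1.12 at ETS1 (4.48 kb), -0.127 to 1.23 and -0.741 to 0.0142 at ETS2 (0.567 and 26.5 kb), -0.794 to 0.0517 at ETV6 (-0.406 kb), -0.214 to 0.325, -0.381 to 0.117 and -0.422 to 0.634 at FLI1 (70.9, 145 and 9.41 kb), -0.291 to 0.225 at SPI1 (-29.7 kb) and -0.326 to 1.43 and -0.0985 to 0.325 at SPIB (-42.3 and -34.7 kb). Positions are from the gene start, negative upstream.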
